A study of Mus musculus with 12 samples.

Results

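Wild-type LSK cells were compared with wild-type cells labelled MPP across all genes, using 4 of the 12 libraries of the study: LSK WT replicates 1 and 2 and MPP WT replicates 1 and 2. The members were taken by their labels alone. LSK stands for the lineage-negative, Sca-1-positive, Kit-positive fraction of mouse bone marrow, and MPP for multipotent progenitor. The library titles give the second population as Lin in place of MPP, and the gates that defined it are not given in the sources used here. All mice were 10 weeks old, were of a 129/C57/B6 mixed strain and received no treatment that the labels name. Each genotype (wild type, WT; Tet2 knockout, KO; Tet2 mutant, Mut) was represented by the pooled marrow of 2 mice, from which both populations were sorted by FACS and 2 technical replicate libraries were made per population. The p-values therefore speak for repeat libraries from the same pool and say nothing of differences between mice. The KO and Mut pools appear below only where the same population difference was read in them. Tet2 encodes a methylcytosine dioxygenase, and the altered residues of the Mut allele are not given in the sources used here.

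The LSK fraction holds the blood-forming stem cells of the marrow together with the earliest multipotent progenitors. Descendants that leave this fraction lose Sca-1, and later Kit, while they take up the programme of one lineage: granule proteins in granulocyte and monocyte precursors, basic proteins and proteases in eosinophil, basophil and mast cell precursors, and heme enzymes and membrane skeleton proteins in erythroid precursors. Multipotent progenitors proper remain within the LSK gate, and surface Flt3 together with CD34 marks only a part of them. In bulk RNA a lower level of a gene can come from fewer cells of a type or from less RNA per cell, and these cannot be told apart here.

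The LSK WT libraries held 9181027 and 12098928 gene counts and the MPP WT libraries 16052410 and 10794823. Levels are given as CPM, the gene's share of a library's counts multiplied to a fixed total, on the library size scaled by the trimmed mean of M-values (TMM), in the order replicate 1, replicate 2. A floor of 3 counts corresponds to 0.317 and 0.239 CPM in the LSK libraries and to 0.200 and 0.300 CPM in the MPP libraries, and floors and intervals cover counting error only. The LSK WT pair stood apart. Its libraries correlated at r = 0.879 over genes (log2(CPM + 1)), against 0.957 to 0.968 in the other 5 pairs, and 158 of the 10537 genes that average 50 counts or more were at 0 in one LSK WT library, against 2 in the MPP WT pair. The ERCC spike-in RNAs took 0.229% and 0.193% of counts in the LSK WT libraries and 3.53% and 3.16% in the MPP WT libraries. Scaling to the spike-ins raised the median log2 difference of all genes from 0 to 4.17, so every direction below is relative to the median gene, and a gene given as higher in MPP by less than that amount was higher in LSK on the spike-in scale.

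Of 14033 genes tested by edgeR's quasi-likelihood test, 1438 (10.2%) were called higher in LSK and 1923 (13.7%) higher in MPP at a Benjamini-Hochberg adjusted p below 0.05. The median size of a called difference was 1.48 on the log2 scale. The largest differences lay on the MPP side and among lineage genes: 240 of the genes called higher in MPP had 0 counts in both LSK WT libraries, and 51 of those called higher in LSK had 0 counts in both MPP WT libraries. Without 1 of the MPP WT libraries, 818 (without replicate 1) and 760 (without replicate 2) genes were called higher in LSK, and 1368 and 1258 higher in MPP. A fit of the 4 WT libraries alone, with fewer degrees of freedom, called 401 and 552, and 950 of these 953 genes were among the calls from all 12 libraries. The gene lists used below were chosen with earlier results of these data known. Their shares called therefore describe the lists and are no independent test.

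**Figure D1:**
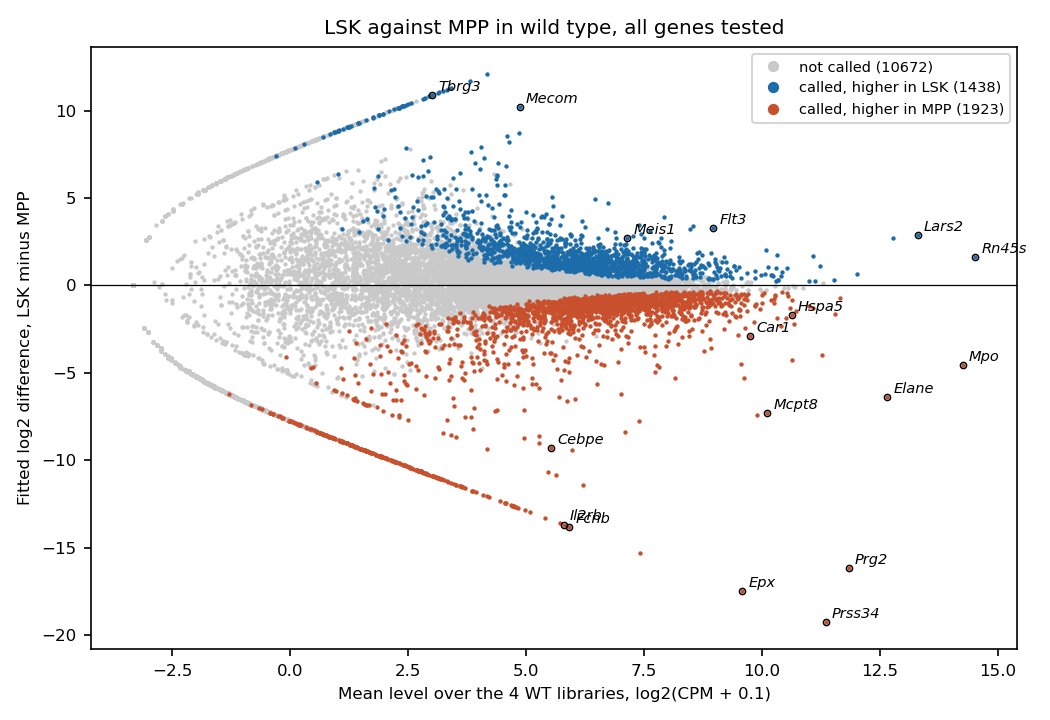
Fitted log2 difference (LSK minus MPP, vertical axis) against the mean level over the 4 WT libraries (log2(CPM + 0.1), horizontal axis) for each gene tested. The 1438 genes called higher in LSK are blue and the 1923 called higher in MPP are red. The curved outer bands are genes with 0 counts in both libraries of one group, whose fitted difference depends on the prior count. Prss34, Prg2 and Epx lie farthest below 0, and Mpo and Elane combine high levels with large differences.

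The surface markers that define the LSK gate and its multipotent part were higher in LSK, which goes against reading the MPP libraries as Flt3-positive multipotent progenitors. The transcript of Flt3, a cytokine receptor of multipotent and lymphoid-primed progenitors (chr5:147330741-147400489, GRCm38), was at 863 and 953 CPM in the LSK libraries and 96.1 and 89.7 CPM in the MPP libraries. That is a 9.77-fold difference (log2 difference 3.29 ± 0.16 SE, adjusted p = 2.18e-07). Kit, the stem cell factor receptor (chr5:75574916-75656722), was at 571 and 618 CPM in LSK and 234 and 180.2 CPM in MPP (log2 difference 1.52 ± 0.14 SE, adjusted p = 2.44e-05). Ly6a, which encodes Sca-1 (chr15:74994877-74998031), was at 93.3 and 58.4 CPM in LSK and 17.6 and 17.3 CPM in MPP (log2 difference 2.12 ± 0.25 SE, adjusted p = 0.000161). In none of these 3 genes did the libraries of the populations overlap. Cd34, a sialomucin of early progenitors, was 2.81-fold higher in LSK (834 and 669.8 CPM against 275 and 259 CPM, adjusted p = 6.23e-06), and Cd27, a TNF receptor family member on early progenitors, 3.85-fold (135 and 148 CPM against 37.2 and 36.3 CPM, adjusted p = 3.66e-05). Of the 15 surface markers tested, 6 were called higher in LSK and 4 higher in MPP.

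The 4 markers called higher in MPP were Fcgr3, Fcgr2b, Il7r and Cd48. Fcgr3, part of the CD16/32 epitope that marks granulocyte-monocyte progenitors, was at 17.4 and 0.239 CPM in LSK and 169.6 and 172 CPM in MPP (log2 difference -4.30 ± 1.01 SE, adjusted p = 0.00986). The LSK libraries thus lay far apart from each other, and both lay below the MPP libraries. With the 4 WT libraries alone Fcgr3 was not called (adjusted p = 0.14). Il7r, the interleukin-7 receptor of lymphoid precursors, was at 2.11 and 6.86 CPM in LSK and 42.8 and 28.8 CPM in MPP (log2 difference -2.99 ± 0.71 SE, adjusted p = 0.0107). The Il7r call was lost without MPP WT replicate 1 (adjusted p = 0.0642) and with the 4 WT libraries alone (adjusted p = 0.0841). Cd48, a SLAM family receptor gained as stem cells become progenitors, was at 115 and 124 CPM in LSK and 183 and 147 CPM in MPP (adjusted p = 0.048), a call that none of the 4 fits with 1 WT library left out kept. Slamf1 (CD150), a stem cell marker of the SLAM family, was at 28.1 and 41.9 CPM in LSK and 2.53 and 5.50 CPM in MPP, and its difference was not called (adjusted p = 0.174).

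**Figure D2:**
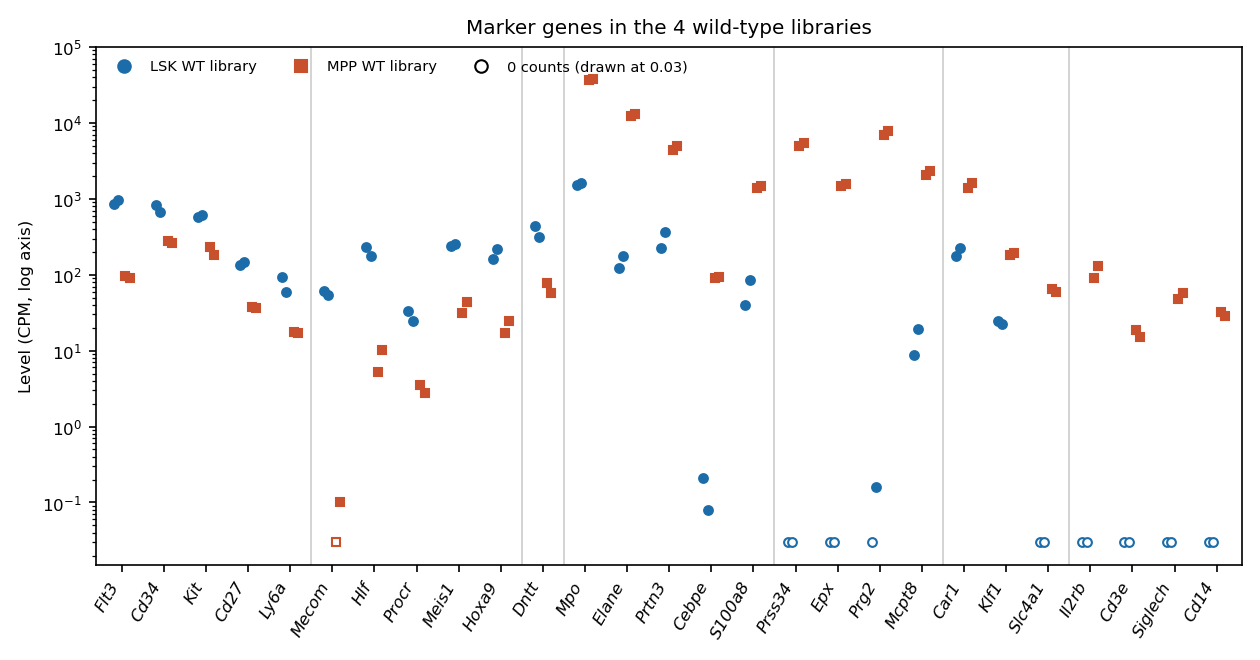
Level of 27 marker genes (CPM, log axis) in each LSK WT library (blue circles) and MPP WT library (red squares); open symbols are libraries with 0 counts. From left to right stand gate markers, stem cell genes, Dntt, granulocyte-monocyte genes, eosinophil and basophil genes, erythroid genes, and genes of lymphocytes, dendritic cells and monocytes. On this scale the first 11 genes were higher in both LSK libraries and the other 16 in both MPP libraries. With spike-in scaling Prtn3, Car1 and Klf1 of these 16 turned to LSK, and Mpo and S100a8 kept their sign but lost their call.

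Genes of the stem cell programme were higher in LSK. Of 30 stem cell genes tested, 20 were called higher in LSK and 1, Nupr1, higher in MPP, with a median log2 difference of 2.62 against 0 over all genes. The summed level of the list was 2298 and 2203 CPM in the LSK libraries and 689.8 and 771 CPM in the MPP libraries. Mecom, whose product Evi1 is needed for stem cell maintenance (chr3:29951296-30548008, GRCm38), was at 61.9 and 54.1 CPM in LSK and 0 and 0.1 CPM in MPP. A single count in the MPP libraries gives a ratio of 1435 (exact 95% Poisson interval 257 to 56734) (adjusted p = 0.000104). Hlf, a transcription factor of stem cells, was at 235 and 176 CPM in LSK and 5.20 and 10.3 CPM in MPP (log2 difference 4.74 ± 0.54 SE, adjusted p = 0.000111). Procr, the endothelial protein C receptor used to sort stem cells, was at 33.2 and 24.3 CPM against 3.53 and 2.80 CPM (log2 difference 3.18 ± 0.42 SE, adjusted p = 0.000337). Gimap1, a GTPase of the immunity-associated family, was at 192 and 148 CPM against 44.5 and 43 CPM (adjusted p = 4.09e-05). In each of these genes both LSK libraries lay above both MPP libraries. Without MPP WT replicate 1 or 2 the list had 14 and 15 calls higher in LSK.

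Transcription factors of stem and progenitor cells followed the same direction in 12 of 24 tested members, with 1, Gfi1b, called higher in MPP. Meis1, a homeobox cofactor, was at 236 and 252 CPM in LSK and 31.7 and 44.2 CPM in MPP (log2 difference 2.69 ± 0.20 SE, adjusted p = 5.23e-06). Hoxa9, its homeobox partner, was at 161 and 219 CPM and 16.9 and 24.2 CPM (log2 difference 3.21 ± 0.28 SE, adjusted p = 1.55e-05). Lmo2, an adaptor of the stem cell transcription factor complex, was at 829 and 895 CPM and 378 and 298 CPM (log2 difference 1.35 ± 0.13 SE, adjusted p = 4.48e-05). In the separate list of Hox, Meis and related homeobox genes, 6 of 19 tested members were called higher in LSK and 0 higher in MPP, with a median log2 difference of 2.69. Its other called members include Hoxa10 (13.7 and 19.1 CPM against 2.53 and 1.10 CPM, adjusted p = 0.00965). Hoxa10 lost its call without MPP WT replicate 2 (adjusted p = 0.0878).

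Outside the lists, the called genes with the largest fitted differences toward LSK had 0 counts in both MPP libraries. Insrr, an insulin receptor-related tyrosine kinase, was at 17.8 and 38.3 CPM in LSK, at least 246-fold higher against a floor of 3 counts over the MPP pair (adjusted p = 0.00531). Vdr, the vitamin D receptor, was at 13.7 and 58.4 CPM in LSK and at least 327-fold higher (adjusted p = 0.00615). Tbrg3 was at 14.7 and 17.3 CPM in LSK (at least 135-fold higher, adjusted p = 0.000371) and Sstr2, a somatostatin receptor, at 15.4 and 13 CPM (at least 117-fold higher, adjusted p = 8.52e-05). The LSK replicates of Vdr differed from each other more than those of Tbrg3 and Sstr2. In the KO and Mut pools the fitted differences were 2.12-fold and 3.71-fold for Vdr and 1.27-fold and 3.51-fold for Tbrg3, none of them called. Sstr2 was 8.14-fold higher in LSK in KO, which was called, and 3.97-fold in Mut, which was not. Insrr was called higher in LSK in both pools. The difference of Vdr was not itself called different between WT and either pool.

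Lymphoid-priming genes were divided. Of 26 tested, 8 were called higher in LSK and 7 higher in MPP, both above the shares over all genes. Dntt, the terminal transferase of early lymphoid progenitors, was at 435 and 317 CPM in LSK and 77.1 and 56.8 CPM in MPP (log2 difference 2.49 ± 0.20 SE, adjusted p = 9.35e-06). Ltb, lymphotoxin beta, was at 283 and 265 CPM and 71.6 and 73.1 CPM (log2 difference 1.92 ± 0.16 SE, adjusted p = 1.12e-05). Satb1, a chromatin organiser of lymphoid development, was at 166 and 269.5 CPM and 69.9 and 39 CPM (adjusted p = 0.000595), and Notch1, the receptor of T lineage commitment, at 276 and 195 CPM and 48.4 and 105 CPM (adjusted p = 0.00502). With Flt3, the genes of multipotent and lymphoid-primed cells in the marker list were thus higher in LSK, apart from Cd48 and Il7r. Irf8, a transcription factor of monocyte and dendritic cell precursors that the list also holds, was at 55 and 88.8 CPM in LSK and 557 and 566 CPM in MPP (log2 difference -2.96 ± 0.19 SE, adjusted p = 1.73e-06).

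The list of primary granule genes of the granulocyte-monocyte lineage was higher in MPP in every member. Not every member encodes a granule protein, as Gstm1 and Ms4a3 below show. Calr and Pgam1 are counted again in the lists of endoplasmic reticulum folding and of glycolysis. All 20 members were tested and all 20 were called, with a median log2 difference of -3.87, against 13.7% of all genes called in that direction. Because the list was chosen with earlier results of these data known, this share is a description and no independent support. The summed level was 4532 and 5053 CPM in LSK and 72098 and 76149 CPM in MPP. Mpo, myeloperoxidase (chr11:87793581-87804413, GRCm38), was at 1522 and 1638 CPM in LSK and 36782 and 38129 CPM in MPP, a 23.7-fold difference (log2 difference -4.57 ± 0.05 SE, adjusted p = 1.26e-12). Elane, neutrophil elastase, was at 121 and 177 CPM in LSK and 12307 and 13043 CPM in MPP (log2 difference -6.41 ± 0.17 SE, adjusted p = 9.67e-10). Prtn3, proteinase 3, was at 228 and 368 CPM and 4364 and 4919 CPM (log2 difference -3.96 ± 0.19 SE, adjusted p = 2.39e-07), and Ctsg, cathepsin G, at 127 and 184 CPM and 2780.5 and 3310.2 CPM (log2 difference -4.29 ± 0.18 SE, adjusted p = 7.29e-08). Ms4a3, a membrane protein of committed granulocyte-monocyte progenitors, was at 36.7 and 41.4 CPM and 1494 and 1561 CPM (log2 difference -5.29 ± 0.15 SE, adjusted p = 1.81e-09). The glutathione transferase Gstm1 was at 106 and 96.8 CPM and 805 and 892 CPM (log2 difference -3.06 ± 0.12 SE, adjusted p = 4.31e-08). Fcnb, a ficolin of granulocyte precursors, had 0 counts in both LSK libraries and 116 and 125 CPM in MPP, at least 875-fold lower in LSK (adjusted p = 0.000107).

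Late neutrophil genes, which belong to secondary granules and mature cells, were called higher in MPP in 12 of 18 tested members and higher in LSK in 1, Padi4. The S100a8 and S100a9 pair, which forms calprotectin, was at 40.5 and 85.1 CPM and 38.4 and 68.6 CPM in LSK. In MPP the levels were 1407 and 1477 CPM for S100a8 (log2 difference -4.52 ± 0.35 SE, adjusted p = 7.92e-06) and 532 and 544 CPM for S100a9 (log2 difference -3.33 ± 0.23 SE, adjusted p = 3.79e-06). Chil3, a chitinase-like protein of neutrophil precursors, had 0 counts in LSK and 53.8 and 57 CPM in MPP (at least 404-fold lower in LSK, adjusted p = 1.6e-05). Lyz2, lysozyme, was at 149 and 199 CPM and 981 and 1006 CPM (log2 difference -2.51 ± 0.13 SE, adjusted p = 5.47e-07). Ly6g, a marker of mature neutrophils, was near 0 in all 4 libraries (0 and 0 CPM in LSK, 0.599 and 0.6 CPM in MPP). Itgam, the CD11b integrin used in lineage gates, was at 91.6 and 31.9 CPM in LSK and 43.8 and 56 CPM in MPP, where the libraries overlap (adjusted p = 0.638).

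Fewer of the regulators of the myeloid lineages were called. Of 18 myeloid transcription factors tested, 5 were called higher in MPP and 1, Klf4, higher in LSK. Cebpe, a factor of granulocyte maturation, was at 0.211 and 0.0797 CPM in LSK and 90.2 and 94 CPM in MPP. Its 3 counts in the LSK pair give a ratio of 673 (exact 95% Poisson interval 230.0 to 3266) (adjusted p = 9.36e-06). Spi1, which encodes PU.1, was at 183 and 179 CPM and 420.2 and 438 CPM (log2 difference -1.25 ± 0.13 SE, adjusted p = 5.78e-05). Cebpa, the factor of granulocyte-monocyte commitment, was at 8.97 and 21.3 CPM in LSK and 60.3 and 25.6 CPM in MPP and was not called (adjusted p = 0.0966), though it was without LSK WT replicate 2 (adjusted p = 0.0287). Among myeloid cytokine receptors, 8 of 19 were called higher in MPP and 3, among them Flt3 and Kit, higher in LSK, while the fits without MPP WT replicate 1 or replicate 2 each called 5 higher in MPP. Cx3cr1, the fractalkine receptor of monocyte precursors, had 0 counts in LSK and 19.7 and 20.4 CPM in MPP (at least 147-fold lower in LSK, adjusted p = 0.000207). That bound covers counting error only. The fitted difference of Cx3cr1 was 4.90-fold in the KO pool, where it was not called (adjusted p = 0.057), and 7.54-fold in the Mut pool. Csf1r, the macrophage colony-stimulating factor receptor, was at 23.9 and 75.8 CPM and 147 and 112 CPM, and with the LSK replicates far apart it was not called (adjusted p = 0.0665). Without LSK WT replicate 2, the higher of that pair, Csf1r was called (adjusted p = 0.00195).

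Genes of eosinophils, basophils and mast cells gave the largest differences among the genes named. Of 22 tested, 15 were called higher in MPP and 1, Slc18a2, higher in LSK, with a median log2 difference of -4.81 (-4.51 with genes at 0 set to their bound). Their summed level was 730.5 and 646 CPM in LSK and 18024 and 19804 CPM in MPP. Prg2, which encodes eosinophil major basic protein, was at 0 and 0.159 CPM in LSK and 6921 and 7726 CPM in MPP. With 2 counts in the LSK pair, the ratio was 79748 (exact 95% Poisson interval 22076 to 658511) (adjusted p = 1.57e-10). Prss34, a basophil and mast cell protease (chr17:25298394-25300165, GRCm38), had 0 counts in both LSK libraries and 5026 and 5381 CPM in MPP, at least 37936-fold lower in LSK (adjusted p = 1.81e-09). Epx, eosinophil peroxidase, had 0 counts in LSK and 1483 and 1561 CPM in MPP (at least 11116-fold lower in LSK, adjusted p = 3.9e-10). Mcpt8, a basophil protease, was at 8.65 and 19.1 CPM and 2089.8 and 2316 CPM (log2 difference -7.29 ± 0.39 SE, adjusted p = 5.47e-07). The ribonucleases Ear1, Ear2 and Ear6 were called too, but they are near-identical copies among which the authors' counting could split reads, so their values are not given.

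A short motif stands in the promoters of 5 mast cell and basophil genes called higher in MPP, which are printed because the set runs from genes with no LSK reads to genes that both populations express. The letters AGATAA, a core recognised by GATA factors, were searched on both strands, so that a match on the opposite strand reads TTATCT, in the 300 bases around each RefSeq start (250 before, 50 after; GRCm38.p6). They occur in 5 of the 13 genes of the list called higher in MPP that have a window, in 6 of the 20 tested with a window, and in 12.7% of all 27025 genes with a window. The sixth gene, Slc18a2, is the list's member called higher in LSK. The 120 bases before the start are shown 5′ to 3′ on the coding strand, with the match in capitals, in the order of the text below.
Prss34 (chr17:25298274-25298393, plus strand): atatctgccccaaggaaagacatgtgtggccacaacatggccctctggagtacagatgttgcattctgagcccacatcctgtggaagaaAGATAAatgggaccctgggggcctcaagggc
Ms4a2 (chr19:11623720-11623839, minus strand): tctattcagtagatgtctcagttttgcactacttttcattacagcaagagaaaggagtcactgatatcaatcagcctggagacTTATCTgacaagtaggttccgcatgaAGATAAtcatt
Cd200r3 (chr16:44943558-44943677, plus strand): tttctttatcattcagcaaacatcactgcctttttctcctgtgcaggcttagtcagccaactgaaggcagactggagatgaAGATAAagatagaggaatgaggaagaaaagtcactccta
Fcer1a (chr1:173227230-173227349, minus strand): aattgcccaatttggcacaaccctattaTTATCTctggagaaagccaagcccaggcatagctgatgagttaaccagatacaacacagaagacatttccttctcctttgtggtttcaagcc
Cpa3 (chr3:20242182-20242301, minus strand): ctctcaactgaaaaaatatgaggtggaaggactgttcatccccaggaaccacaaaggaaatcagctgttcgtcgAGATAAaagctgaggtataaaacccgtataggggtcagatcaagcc

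The match lies 31 bases before the start in Prss34, 37 and 11 bases in Ms4a2, 39 in Cd200r3, 92 in Fcer1a and 46 in Cpa3, counted from the first base of the match. A match describes letters in this window and is not a measured binding site. The levels of the genes that share it differed widely in LSK. Ms4a2, the beta chain of the high-affinity IgE receptor, was at 0 and 0.0797 CPM in LSK and 129.8 and 166 CPM in MPP, and its single LSK count gives a ratio of 3178 (exact 95% Poisson interval 570.1 to 125572) (adjusted p = 4.44e-06). Cd200r3, an activating receptor of basophils and mast cells, had 0 counts in LSK and 50.8 and 62.8 CPM in MPP (at least 408-fold lower in LSK, adjusted p = 0.000377). Fcer1a, the alpha chain of the same IgE receptor and named for its promoter after its values were seen, was at 15.3 and 32.9 CPM and 349 and 341 CPM (log2 difference -3.83 ± 0.34 SE, adjusted p = 2.02e-05). Cpa3, mast cell carboxypeptidase, was at 147 and 51.3 CPM in LSK and 465 and 516 CPM in MPP (log2 difference -2.31 ± 0.36 SE, adjusted p = 0.000911), and was not called with the 4 WT libraries alone (adjusted p = 0.0586).

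Erythroid genes were higher in MPP. Of 41 tested, 29 were called higher in MPP and 1, Muc13, higher in LSK, with a median log2 difference of -2.75. Car1, carbonic anhydrase 1, an early erythroid gene, was at 175 and 227 CPM in LSK and 1397 and 1631 CPM in MPP (log2 difference -2.91 ± 0.14 SE, adjusted p = 2.18e-07). Add2, beta-adducin of the red cell membrane skeleton, had 0 counts in LSK and 35.4 and 51.2 CPM in MPP (at least 306-fold lower in LSK, adjusted p = 1.97e-06). That bound covers counting error only, and the fitted difference of Add2 was 16.6-fold in the KO pool and 39.8-fold in the Mut pool. Slc4a1, the band 3 anion exchanger, had 0 counts in LSK and 65.7 and 59.4 CPM in MPP (at least 464-fold lower in LSK, adjusted p = 0.00084). The adult globin rows Hba-a1 and Hbb-bs are listed at 0 in all 4 libraries, beside these other erythroid genes.

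Genes of heme synthesis and iron handling were called higher in MPP in 16 of 30 tested members and higher in LSK in 2, Slc25a37 and Ireb2. Without MPP WT replicate 1, 10 were called higher in MPP. Alas1, the first enzyme of heme synthesis outside the erythroid lineage, was at 82.2 and 68.1 CPM in LSK and 851 and 930.2 CPM in MPP (log2 difference -3.57 ± 0.13 SE, adjusted p = 2.23e-08). Tmem14c, a mitochondrial porphyrin transporter, was at 83.7 and 83.9 CPM and 340.4 and 363 CPM (log2 difference -2.07 ± 0.12 SE, adjusted p = 8.31e-07).

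Erythroid and megakaryocyte transcription factors were called in both directions. Of 17 tested, 8 were called higher in LSK, among them Meis1, Lmo2, Tal1, Lyl1, Zfpm1, Cbfa2t3 and Ldb1, and 4 higher in MPP, Klf1, Gata1, Hes6 and Gfi1b. Without MPP WT replicate 1, 2 were called higher in MPP. Ldb1, the adaptor that joins Lmo2 to Gata1 and Tal1, was at 267 and 267 CPM in LSK and 87.2 and 70.2 CPM in MPP (log2 difference 1.76 ± 0.21 SE, adjusted p = 0.000137). Klf1, the erythroid Krüppel-like factor, was at 24.9 and 22.6 CPM and 182 and 191 CPM (log2 difference -2.97 ± 0.27 SE, adjusted p = 2.52e-05). Gata1 was at 80.4 and 31.3 CPM and 151 and 194 CPM (log2 difference -1.63 ± 0.35 SE, adjusted p = 0.00658) and was not called with the 4 WT libraries alone (adjusted p = 0.0995). Epor, the erythropoietin receptor, was at 4.86 and 30.3 CPM and 64.6 and 100.2 CPM (log2 difference -2.22 ± 0.61 SE, adjusted p = 0.0224), and it lost its call without MPP WT replicate 2 (adjusted p = 0.11). The Epor promoter holds the same GATA letters 54 bases before its start, on the other strand.
Epor (chr9:21963577-21963696, minus strand): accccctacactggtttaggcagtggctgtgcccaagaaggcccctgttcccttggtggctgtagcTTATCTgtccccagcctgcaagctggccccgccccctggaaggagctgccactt

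Megakaryocyte and platelet genes pointed toward LSK. Of 26 tested, 8 were called higher in LSK and 1, Cd226, higher in MPP. Pf4, platelet factor 4, was at 118 and 164 CPM in LSK and 43.8 and 53 CPM in MPP (log2 difference 1.54 ± 0.29 SE, adjusted p = 0.00307), and Mef2c, a transcription factor of megakaryocytes and lymphoid progenitors, at 318 and 457 CPM and 87.1 and 105 CPM (log2 difference 2.02 ± 0.20 SE, adjusted p = 4.72e-05). Itga2b (CD41) was at 227 and 249 CPM and 219 and 309 CPM with overlapping libraries (adjusted p = 0.535). Vwf, von Willebrand factor, was low in every library, at 2.85 and 2.39 CPM and 16.5 and 7.91 CPM (adjusted p = 0.0628).

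Most genes of mature T and NK cells were higher in MPP. Of 21 T and NK cell genes tested, 15 were called higher in MPP and 0 higher in LSK, and 10 had 0 counts in both LSK libraries. The median log2 difference of -8.59 falls to -6.46 in size when genes at 0 are set to their bound. The summed level was 385 and 382 CPM in LSK and 1904 and 2027 CPM in MPP, much of it from Nkg7, a granule protein that myeloid progenitors also express (235 and 270.2 CPM and 1307 and 1384 CPM, adjusted p = 5.79e-08). Il2rb, a subunit of the interleukin-2 and interleukin-15 receptors, had 0 counts in LSK and 89.9 and 132 CPM in MPP (at least 782-fold lower in LSK, adjusted p = 0.000694). That bound covers counting error in these libraries only. In the KO pool Il2rb was at 6.52 and 4.02 CPM in LSK, a fitted 13.3-fold difference, and in the Mut pool the fitted difference was 39.2-fold. Ncr1, the NKp46 receptor of NK cells, had 0 counts in LSK and 26 and 41.7 CPM in MPP (at least 237-fold lower, adjusted p = 8.4e-05). The CD3 chains Cd3e and Cd3d had 0 counts in LSK and stood at 18.5 and 15.1 CPM and 17 and 9.21 CPM in MPP (at least 126-fold and 102-fold lower in LSK). A lineage gate that includes CD3 would remove such cells, and the part of mature cells in the other differences was not tested.

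Lists of other mature cell types had smaller shares called higher in MPP than the T and NK cell list. Over all genes, 10.2% were called higher in LSK and 13.7% higher in MPP. Whether such mature cells were present was not tested. Of 15 B cell genes tested, 4 were called higher in MPP, among them Ly6d, a marker of lymphoid and B-lineage precursors (11 and 0.718 CPM in LSK and 69.2 and 101 CPM in MPP, adjusted p = 0.00803). The B cell count was 1, Ly6d, without MPP WT replicate 2, and 0 with the 4 WT libraries alone (Ly6d adjusted p = 0.112). Of 20 MHC class II and dendritic cell genes, 3 were called higher in LSK and 6 higher in MPP. Siglech, a receptor of plasmacytoid dendritic cells, had 0 counts in LSK and 47.4 and 57.9 CPM in MPP (at least 379-fold lower in LSK, adjusted p = 0.000165). Of 18 macrophage and monocyte genes, 4 were called higher in MPP and 0 higher in LSK. Cd14, the lipopolysaccharide co-receptor, had 0 counts in LSK and 32.1 and 28.4 CPM in MPP (at least 225-fold lower in LSK, adjusted p = 0.000118). Adgre1, which encodes F4/80, had 0 counts in LSK and 8.19 and 8.01 CPM in MPP (adjusted p = 0.0388), a call that none of the 4 fits with 1 WT library left out kept. Stroma and endothelium genes were called in 2 of 10 tested members higher in LSK, Pdgfrb and Runx2, and in 1, Pecam1, higher in MPP, and each of these 3 calls was lost without MPP WT replicate 1 and without MPP WT replicate 2.

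**Figure D3:**
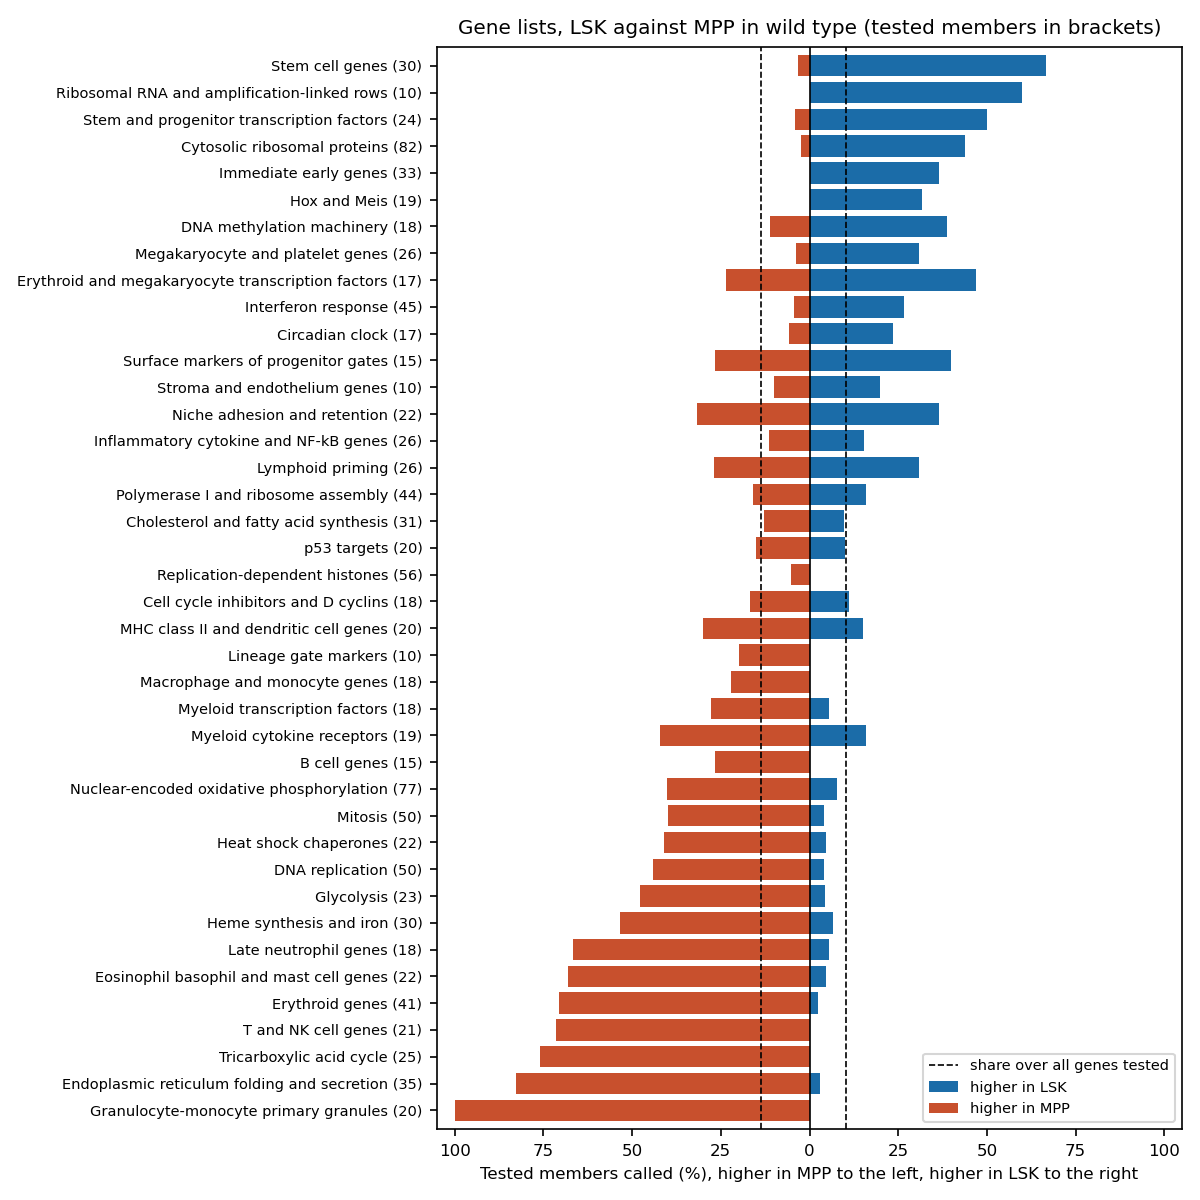
Share of the tested members of each gene list (percent, number tested in brackets) called higher in MPP (red, to the left) or higher in LSK (blue, to the right) in the wild-type comparison, for lists with at least 10 tested members. Dashed lines mark the shares over all 14033 genes, 13.7% and 10.2%. Granulocyte-monocyte granule genes and folding genes of the endoplasmic reticulum reach farthest to the left, and stem cell genes farthest to the right; with spike-in scaling the calls higher in MPP fall to 5 of the granule genes and 0 of the folding genes.

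Proliferation genes were higher in MPP. Of 50 DNA replication genes, 22 were called higher in MPP and 2, Pola1 and Rfc1, higher in LSK, with a median log2 difference of -0.61. Of 50 mitosis genes, 20 were called higher in MPP and 2, Cenpf and Top2a, higher in LSK, with a median of -0.59. Rrm2, the regulated subunit of ribonucleotide reductase, was at 55.6 and 47.8 CPM in LSK and 356 and 389 CPM in MPP (log2 difference -2.85 ± 0.16 SE, adjusted p = 8.31e-07). Mcm2, a subunit of the replicative helicase, was at 238 and 193 CPM and 691 and 662 CPM (log2 difference -1.65 ± 0.12 SE, adjusted p = 3.66e-06). Aurkb, a mitotic kinase, was at 39.2 and 43.4 CPM and 207 and 185 CPM (log2 difference -2.25 ± 0.17 SE, adjusted p = 5.13e-06). Cell cycle inhibitors, D cyclins and their kinases were called in both directions. Of 18 tested, 2 (11.1%), Cdk6 and Ccnd2, were called higher in LSK. Another 3 (16.7%), Ccnd3, Cdk4 and Cdkn2c, were called higher in MPP. These shares were near the 10.2% and 13.7% over all genes. Ccnd3, cyclin D3, was at 171 and 132 CPM in LSK and 449.6 and 496 CPM in MPP (log2 difference -1.65 ± 0.15 SE, adjusted p = 2.23e-05), and Cdk6, a kinase that D cyclins activate, at 707 and 804 CPM and 513 and 537 CPM (log2 difference 0.52 ± 0.11 SE, adjusted p = 0.00644).

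The promoters of the mitosis genes are known for repeated CCAAT boxes, the letters bound by NF-Y. Printed below are 2 that hold such repeats in genes called here. On either strand, where the opposite one reads ATTGG, these letters occur in 13 of the 17 mitosis genes called higher in MPP that have a window, in 33 of the 43 tested with a window, and in 41.1% of all 27025 genes with a window. The share was 76.5% among the called members and 76.7% among the tested ones. Matches on the coding strand are in capitals.
Ccnb2 (chr9:70421555-70421674, minus strand): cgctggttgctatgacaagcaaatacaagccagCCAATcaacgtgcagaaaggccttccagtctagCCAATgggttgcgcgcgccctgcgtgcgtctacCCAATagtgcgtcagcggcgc
Cdc20 (chr4:118437344-118437463, minus strand): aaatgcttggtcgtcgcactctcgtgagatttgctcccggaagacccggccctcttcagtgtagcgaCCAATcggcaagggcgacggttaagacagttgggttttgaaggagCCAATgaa

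In Ccnb2 the matches lie 87, 54 and 21 bases before the start, and in Cdc20 they lie 53 and 8 bases before it. Cdc20, the activator of the anaphase-promoting complex, was at 73.4 and 102 CPM in LSK and 215 and 277 CPM in MPP (log2 difference -1.49 ± 0.18 SE, adjusted p = 0.000147). Ccnb2, cyclin B2, named for its promoter after its values were seen, was at 124 and 86.5 CPM and 227 and 258 CPM (log2 difference -1.21 ± 0.18 SE, adjusted p = 0.00066). Both LSK libraries lay below both MPP libraries in these genes.

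Folding and secretion genes of the endoplasmic reticulum were higher in MPP in 29 of 35 tested members and higher in LSK in 1, Atf4, with a median log2 difference of -1.5. The summed level was 7936 and 7599 CPM in LSK and 21856 and 22856 CPM in MPP. Hspa5, the chaperone BiP, was at 775 and 712 CPM in LSK and 2444 and 2398 CPM in MPP (log2 difference -1.70 ± 0.07 SE, adjusted p = 6.37e-08). P4hb, a protein disulfide isomerase, was at 406 and 496 CPM and 2193 and 2315 CPM (log2 difference -2.32 ± 0.11 SE, adjusted p = 1.65e-07), and Calr, the lectin chaperone calreticulin, at 531 and 651 CPM and 2691 and 2705 CPM (log2 difference -2.19 ± 0.11 SE, adjusted p = 3.36e-07). Ddost, a subunit of the enzyme that attaches N-glycans, was at 232 and 260.5 CPM and 973 and 1060.0 CPM (log2 difference -2.04 ± 0.09 SE, adjusted p = 1.65e-07). Counts without each WT library in turn ran from 25 to 30. The promoter of Hspa5 holds CCAAT 98 and 65 bases before its start. CCAAT is also the first part of the endoplasmic reticulum stress response element.
Hspa5 (chr2:34771970-34772089, plus strand): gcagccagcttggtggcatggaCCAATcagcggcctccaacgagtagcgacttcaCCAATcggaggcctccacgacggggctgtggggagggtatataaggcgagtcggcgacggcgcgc

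Heat shock chaperones were called higher in MPP in 9 of 22 tested members, of which Hspa5 and Hsp90b1 are also folding genes of the endoplasmic reticulum, and higher in LSK in 1, Hsp90ab1. These shares were 40.9% and 4.55%, against 13.7% and 10.2% over all genes. The list as a whole did not lean, with a median log2 difference of -0.08 and 11 members fitted in each direction. The inducible cytosolic chaperone Hspa1b was at 156 and 141 CPM in LSK and 371 and 347 CPM in MPP (log2 difference -1.27 ± 0.16 SE, adjusted p = 0.000223).

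Energy metabolism genes were higher in MPP. Of 25 tricarboxylic acid cycle genes, 19 were called higher in MPP and 0 higher in LSK (median log2 difference -0.81). Idh3a, a subunit of the NAD-dependent isocitrate dehydrogenase, was at 109 and 102 CPM in LSK and 318 and 325 CPM in MPP (log2 difference -1.60 ± 0.13 SE, adjusted p = 1.23e-05). Of 77 nuclear genes of oxidative phosphorylation, 31 were called higher in MPP and 6 higher in LSK, and without MPP WT replicate 2 the first count was 16. Atp5b, the catalytic beta subunit of the ATP synthase, was at 1326 and 1155 CPM and 2804 and 2914 CPM (log2 difference -1.20 ± 0.07 SE, adjusted p = 1.18e-06). Uqcrc1, a core subunit of respiratory complex III, was at 312 and 327 CPM and 1016 and 1098 CPM (log2 difference -1.72 ± 0.11 SE, adjusted p = 1.5e-06). Of 23 glycolysis genes, 11 were called higher in MPP and 1, the glucose transporter Slc2a3, higher in LSK. Gpi1, glucose-6-phosphate isomerase, was at 263 and 305 CPM and 868 and 968 CPM (log2 difference -1.69 ± 0.11 SE, adjusted p = 2.59e-06), and Ldha, lactate dehydrogenase A, at 836 and 782 CPM and 1582 and 1654 CPM (log2 difference -1.0 ± 0.07 SE, adjusted p = 4.59e-06).

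Cytosolic ribosomal proteins, ribosomal RNA and immediate early genes were higher in LSK in wild type. Of 82 ribosomal protein genes tested, 36 were called higher in LSK and 2, among them Rpl4, higher in MPP (median log2 difference 0.67). These genes have many processed pseudogenes, among which the authors' counting could split reads. Rplp1, of the ribosome's stalk, was at 1702 and 1787 CPM in LSK and 412 and 445 CPM in MPP (log2 difference 2.03 ± 0.11 SE, adjusted p = 5.47e-07). Rps24 was at 641 and 640.4 CPM and 160.1 and 179.9 CPM (log2 difference 1.91 ± 0.12 SE, adjusted p = 1.41e-06), and Rps21 at 620.3 and 623 CPM and 165 and 176 CPM (log2 difference 1.86 ± 0.15 SE, adjusted p = 9.51e-06). The row Rn45s, the precursor of ribosomal RNA, was at 35322 and 35642 CPM in LSK and 11794 and 11007 CPM in MPP (log2 difference 1.64 ± 0.07 SE, adjusted p = 7.6e-08). Lars2, mitochondrial leucyl-tRNA synthetase, whose locus (chr9:123366927-123462666) carries a stretch like ribosomal RNA, was at 17048 and 18262 CPM and 2313 and 2531 CPM (log2 difference 2.87 ± 0.06 SE, adjusted p = 2.43e-10). Malat1, a nuclear long non-coding RNA, was at 11817 and 12633 CPM and 1714 and 1959.6 CPM (log2 difference 2.73 ± 0.07 SE, adjusted p = 8.89e-10). Rn45s took 3.65% and 3.70% of gene counts in the LSK WT libraries and 1.10% and 1.02% in the MPP WT libraries. With the Rn45s and Lars2 rows left out, 1436 genes were called higher in LSK and 1923 higher in MPP.

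Immediate early genes, which many stimuli induce within minutes, were called higher in LSK in 12 of 33 tested members and higher in MPP in 0. Without MPP WT replicate 2, 5 were called. Fos was at 5156 and 4916 CPM in LSK and 3129 and 3286 CPM in MPP (log2 difference 0.65 ± 0.05 SE, adjusted p = 7.97e-06), and Fosb at 596 and 699 CPM and 188 and 204 CPM (log2 difference 1.72 ± 0.11 SE, adjusted p = 2.59e-06). The orphan nuclear receptor Nr4a1 was at 352 and 397 CPM and 113 and 105 CPM (log2 difference 1.78 ± 0.15 SE, adjusted p = 1.17e-05). Per1, a clock gene that stimuli also induce, was at 162 and 145 CPM and 38 and 27.6 CPM (log2 difference 2.22 ± 0.26 SE, adjusted p = 0.000153).

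In the Tet2 Mut pool, Rn45s stood at 9144 and 10166 CPM in LSK and 9233 and 10736 CPM in MPP, where the libraries overlap, and Rplp1 at 342 and 400.0 CPM and 405 and 383 CPM. The difference between populations was larger in WT than in Mut by 1.69 on the log2 scale for Rn45s (adjusted p = 7.52e-06), by 2.63 for Lars2 (adjusted p = 4.59e-08) and by 2.11 for Rplp1 (adjusted p = 4.98e-05). Among ribosomal proteins, 23 of 82 were called higher in LSK in the KO pool and 5 in the Mut pool, and by the test of the difference 2 differed between WT and KO and 17 between WT and Mut. Immediate early genes were called higher in LSK in 6 of 33 members in KO and in 2 in Mut, with 3 called higher in MPP in each, and 2 differed between WT and KO and 6 between WT and Mut. Over all 14033 genes, calls higher in LSK also fell, from 1438 in WT to 986 in KO and 498 in Mut. Calls higher in MPP numbered 1923, 1142 and 731. By the test of the difference, 0.727% of all genes differed between WT and KO and 2.53% between WT and Mut. With 1 pool per genotype, genotype and pool cannot be told apart.

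**Figure D4:**
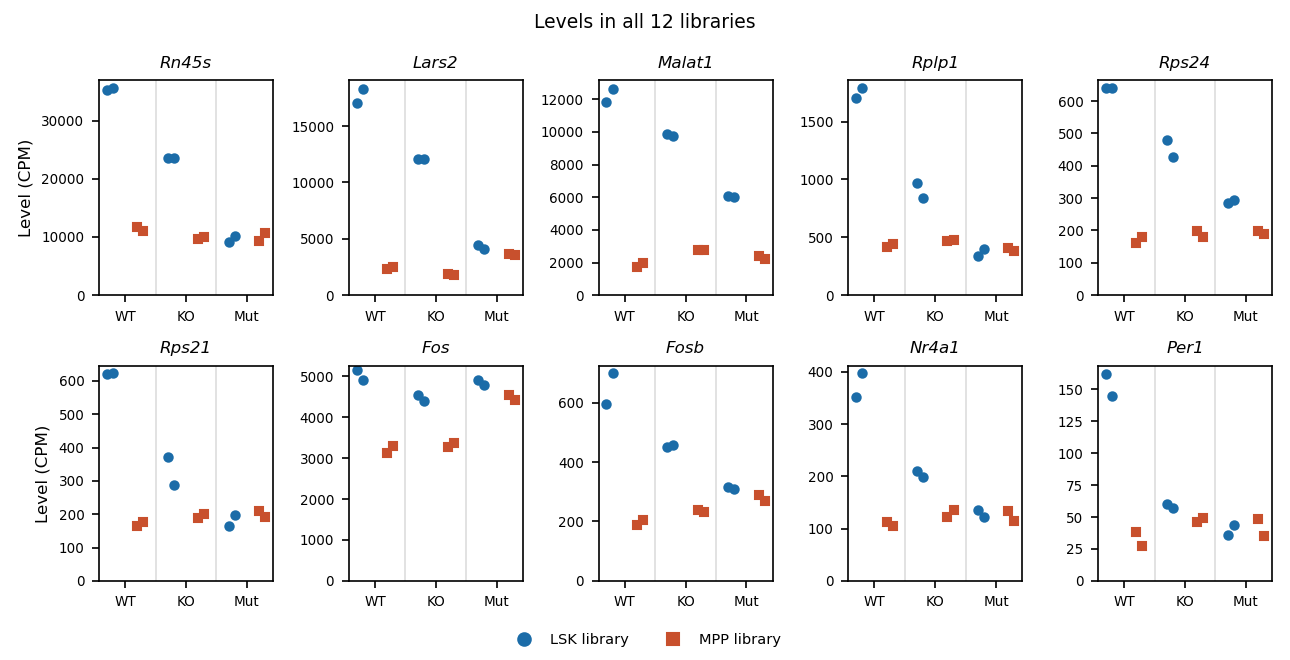
Level (CPM) of 10 genes in all 12 libraries, by genotype, with LSK libraries as blue circles and MPP libraries as red squares. The 10 genes were chosen, after their values were seen, for a difference that is large in WT and smaller in Mut. That the distance between the populations is widest in WT for all 10 genes is thus no separate result. Rn45s, Rplp1, Rps21, Nr4a1 and Per1 overlap between the populations in Mut.

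Interferon response genes were called higher in LSK in 12 of 45 tested members and higher in MPP in 2, Ly6e and Ifi47. Without MPP WT replicate 1 or replicate 2, 4 and 6 were called higher in LSK. Ifi27, an interferon-induced mitochondrial protein, was at 247 and 251 CPM in LSK and 96.4 and 114 CPM in MPP (log2 difference 1.24 ± 0.14 SE, adjusted p = 9.79e-05). Ifitm3, an antiviral membrane protein that stem cells express at rest, was at 328 and 274 CPM and 132 and 143 CPM (log2 difference 1.13 ± 0.13 SE, adjusted p = 0.000146). Ly6e, of the Ly6 family, was at 844 and 926 CPM and 2108 and 2256 CPM (log2 difference -1.30 ± 0.08 SE, adjusted p = 1.22e-06).

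The DNA methylation machinery had 7 of 18 tested members called higher in LSK and 2, Idh1 and Idh2, higher in MPP, and without MPP WT replicate 1 or replicate 2 the first count was 4. Tet1, a methylcytosine dioxygenase like Tet2, was at 63.6 and 74.7 CPM in LSK and 18.2 and 20.3 CPM in MPP (log2 difference 1.85 ± 0.44 SE, adjusted p = 0.0115), and lost its call without MPP WT replicate 1 (adjusted p = 0.0761) and without replicate 2 (adjusted p = 0.0602). Tet2, the gene altered in the other pools, was at 87.3 and 62.7 CPM and 39.6 and 29.4 CPM (log2 difference 1.12 ± 0.29 SE, adjusted p = 0.0158). Its call was lost with the 4 WT libraries alone (adjusted p = 0.119), without LSK WT replicate 1 (adjusted p = 0.0561) and without MPP WT replicate 2 (adjusted p = 0.141). Tet3 was at 133 and 75.2 CPM and 72.5 and 61.9 CPM, where the libraries of the populations do not overlap, and was not called (adjusted p = 0.153), though it was without LSK WT replicate 2 (adjusted p = 0.0184). Dnmt3b, a de novo DNA methyltransferase, was at 168 and 151 CPM and 48.5 and 57.5 CPM (log2 difference 1.59 ± 0.21 SE, adjusted p = 0.000276). Idh1, which makes the cofactor of the Tet enzymes, was at 54.8 and 56.9 CPM and 174 and 138 CPM (log2 difference -1.48 ± 0.21 SE, adjusted p = 0.000443).

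The same population difference was read in the Tet2 KO and Tet2 Mut pools, which share no library with WT. In KO, 986 genes were called higher in LSK and 1142 higher in MPP (15.2% of 14033 in all), and in Mut 498 and 731 (8.76%). Of the 3361 genes called in WT, 3151 had the same sign in KO and 1577 were called in the same direction, while 5 were called in the opposite one. In Mut, 2964 had the same sign, 945 were called in the same direction and 4 in the opposite one. A total of 826 genes (24.6%) were called in the same direction in all 3 pools, 518 of them higher in MPP and 308 higher in LSK. All 20 members of the primary granule list were called higher in MPP in KO and 19 in Mut. Of 30 stem cell genes, 15 were called higher in LSK in KO and 16 in Mut, with 0 called higher in MPP in either. Eosinophil, basophil and mast cell genes were called higher in MPP in 17 of 22 members in KO and 19 in Mut.

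The population difference itself was tested between genotypes. It differed between WT and KO in 102 genes (0.727%) and between WT and Mut in 355 (2.53%), and the WT difference was the larger in size in 87 of the 102 and 319 of the 355. The counts without 1 WT library ran from 6 to 903 for KO and from 94 to 1425 for Mut, the lowest without MPP WT replicate 2 and the highest without LSK WT replicate 2. Mpo, at 3998 and 3823 CPM in LSK and 30182 and 30306 CPM in MPP in the KO pool, had a WT difference larger than that in KO (log2 -1.62, adjusted p = 3.33e-07). In the Mut pool Mpo was at 4662 and 4333 CPM in LSK and 33875 and 32397 CPM in MPP (log2 -1.69, adjusted p = 3.17e-07). For the eosinophil gene Prg2, LSK levels were 144 and 137 CPM in KO and 6.94 and 10 CPM in Mut, against 0 and 0.159 CPM in WT. The basophil gene Prss34 was at 0.331 and 0 CPM in LSK KO and 17.5 and 15.8 CPM in LSK Mut, against 0 in both LSK WT libraries. Flt3 and Kit kept differences of 3.63 and 1.66 in KO and of 2.65 and 1.03 in Mut on the log2 scale, and neither gene's difference was called different from WT.

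**Figure D5:**
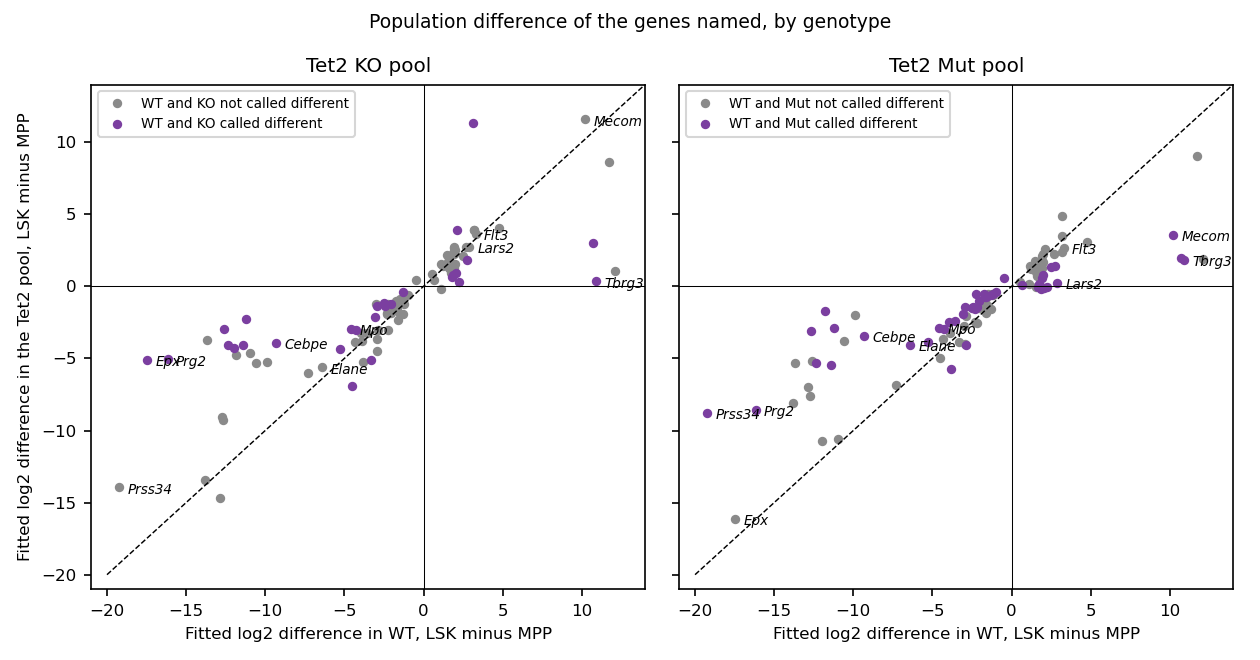
Fitted log2 difference (LSK minus MPP) of the named genes called in WT, in the KO pool (left) and the Mut pool (right) against WT; the dashed line marks equal differences and purple points are genes whose difference was called different from WT. Most points lie in the same quadrant in both panels. Genes with 0 counts in both LSK WT libraries, such as Epx and Prss34, have fitted values that depend on the prior count.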

How the data were processed

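Total RNA from sorted mouse bone marrow cells was amplified, barcoded and sequenced as 150 bp read pairs with ERCC spike-ins, per the labels' protocols. Per the labels, adaptors were removed by Trim Galore 0.4.1, and TopHat2 2.0.13 with default settings aligned the reads to mm10. The submitters' processing notes also list HTSeq 0.6.1 and Cufflinks, while the strand setting and annotation are not given in the sources used here. The authors deposited raw read counts per gene symbol in a table for each population, with 24538 genes and 92 spike-in rows. Tables were joined by symbol and all 12 columns used; a KO column of the MPP table that repeats the number of another was taken as KO replicate 2 from its ending.

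Counts as deposited were tested with edgeR 4.0.16 in R 4.3.3 (filterByExpr by group with minimum count 10 and minimum total 15, TMM, quasi-likelihood fit of all 12 libraries with a mean per group, 6 residual degrees of freedom, two-sided, Benjamini-Hochberg adjustment over 14033 genes, called below 0.05). The script was tested on simulated counts. CPM use the TMM-scaled library size. For groups at 0 counts, 3 counts over both libraries served as floor, and 1 to 3 counts give a ratio with an exact 95% Poisson interval. Counting error is known from 9181027 to 16052410 gene counts per WT library, and, without molecular identifiers, PCR copies count as separate reads. The replicates of a group gave different counts beyond sampling noise, so none was counted as a duplicate. Positions are from GENCODE M21 on GRCm38, which matched 13754 of the 14033 symbols.

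Named genes are up to 12 called genes per direction with the largest fitted differences, non-overlapping libraries and at least 100 counts on average in the higher group, up to 4 called members of each list by p, the cell type markers, and fixed gate, Tet and ribosomal RNA genes. A few genes that this rule selects are not reported here. Others are said to be chosen after their values were seen, or are the exceptions of a list, given without values. Members and lists were chosen with earlier results of these data known. Other scalings, filters, tests, the WT libraries alone, a replicate block and each WT library left out were tried. Promoter windows are RefSeq sequences (GRCm38.p6).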

Additional observations from a re-analysis of the deposited data

Results flagged for a closer look

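The difference between LSK and MPP was larger or smaller in wild type than in another pool by the test of that difference (edgeR, adjusted p below 0.05) in 102 genes for KO and 355 for Mut. Values below are log2 differences of LSK minus MPP in WT, minus the same in the named pool, for the named genes that passed; negative values mean that WT leaned further toward MPP. With 1 pool of mice per genotype, genotype and pool cannot be told apart. The largest fitted values rest on a group with few or 0 counts and depend on the prior count.

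Among genes of the LSK gate, stem cells and lymphoid priming, Ly6a by -1.79 against KO, Cd48 by -1.01 against Mut, Mecom by 6.62 against Mut and Hoxa10 by -8.20 against KO differed. Dntt by 1.18 against Mut, Mef2c by 1.22 against Mut, Tbrg3 by 10.56 against KO and 9.09 against Mut and Sstr2 by 7.70 against KO and 8.74 against Mut did so too. Among granulocyte-monocyte genes and their regulators, Mpo by -1.62 against KO and -1.69 against Mut, Elane by -2.34 against Mut, Ms4a3 by -0.95 against KO and -1.43 against Mut and Prtn3 by -1.46 against Mut differed. Ctsg by -1.27 against KO and -1.35 against Mut, Gstm1 by -0.91 against KO and -1.14 against Mut, Irf8 by -1.63 against KO and -1.51 against Mut and Cebpe by -5.38 against KO and -5.88 against Mut did so too. Lyz2 by -1.34 against KO and -1.01 against Mut, Chil3 by -9.58 against Mut, Cx3cr1 by -8.94 against KO and -8.31 against Mut and Cd14 by -10.08 against Mut did so too. S100a8 by 2.42 against KO and S100a9 by 1.79 against KO did so too. Among eosinophil, basophil, mast cell, erythroid and mature lymphoid or dendritic cell genes, Prg2 by -11.11 against KO and -7.63 against Mut, Epx by -12.36 against KO, Prss34 by -10.48 against Mut and Ms4a2 by -7.38 against KO and -5.95 against Mut differed. Fcer1a by 1.92 against Mut, Car1 by 1.14 against Mut, Add2 by -8.28 against KO and -7.02 against Mut and Alas1 by -1.15 against Mut did so too. Nkg7 by -1.02 against KO and -1.0 against Mut, Ncr1 by -7.73 against KO and Siglech by -9.67 against KO did so too. Among proliferation, folding and metabolism genes, Mcm2 by -0.91 against Mut, Aurkb by -1.74 against Mut, Ccnd3 by -0.92 against Mut and Ddost by -0.84 against KO and -1.01 against Mut differed. P4hb by -0.72 against Mut, Calr by -0.73 against Mut, Atp5b by -0.70 against Mut and Uqcrc1 by -1.20 against Mut did so too. Ldha by -0.62 against Mut did so too. Among ribosomal, immediate early and interferon genes, Rplp1 by 1.10 against KO and 2.11 against Mut, Rps24 by 1.33 against Mut, Rps21 by 1.11 against KO and 2.03 against Mut and Rn45s by 1.69 against Mut differed. Lars2 by 2.63 against Mut, Malat1 by 0.91 against KO and 1.36 against Mut, Fosb by 1.56 against Mut and Fos by 0.54 against Mut did so too. Nr4a1 by 1.12 against KO and 1.74 against Mut, Per1 by 1.92 against KO and 2.30 against Mut and Ly6e by -0.90 against KO and -0.68 against Mut did so too.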

How the results depend on the processing

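Of the 109 tested genes named with values, 108 kept direction and side of the threshold with DESeq2 size factors and with the replicate block, 106 without a filter on low counts and 104 with a 1.5-fold threshold (glmTreat). All of those still tested did so without the Rn45s and Lars2 rows (107) and with at least 10 counts in both libraries of a WT group (108), 94 of 108 with the 4 WT libraries alone, 106 of 108 with DESeq2's Wald test, and 102 to 105 without 1 WT library. Genes higher in LSK numbered 760 to 1679 and genes higher in MPP 1258 to 2519 without 1 WT library. They were 773 and 1111 with the 1.5-fold threshold, 401 and 552 with the 4 WT libraries, and 11431 and 119 with spike-in scaling. Genes called in the same direction in all 3 pools were 342 with the 1.5-fold threshold, 1330 with DESeq2, 10989 with spike-in scaling and 663 to 1287 without 1 WT library. Genes whose population difference differed between WT and KO were 278 without a filter, 4 with the 1.5-fold threshold, 580 with DESeq2, 2 with spike-in scaling and 6 to 903 without 1 WT library. Between WT and Mut they were 662, 56, 1093, 5428 and 94 to 1425. The cause was not tested, apart from the fewer libraries or stricter hypothesis that the setting itself brings. Replicate numbers are shared by LSK and MPP. Same-numbered WT libraries did not deviate together (r = 0.0237 over genes), but 2 libraries per group cannot show whether they shared a preparation step. With the replicate block, 1308 genes were higher in LSK and 1817 higher in MPP. In that fit 34 genes differed between WT and KO and 248 between WT and Mut. With the 4 WT libraries alone the calls lost were Adgre1, Cd48, Cdk6, Cpa3, Epor, Fcgr3, Gata1, Hoxa10, Il7r, Ly6d, Notch1, Procr, Satb1 and Tet2 (adjusted p 0.0509 to 0.238). Of 22 list counts of 1 or 2 members in a direction, 20 moved by over 1.5 times without some WT library. Among named genes, Itga2b ran from -0.38 to 0.12 and Itgam from -0.65 to 0.87 over the fits without 1 WT library, uncalled in each. On the spike-in scale the log2 difference turned positive in Alas1 0.61, Atp5b 2.98, Aurkb 1.96, Calr 2.01, Car1 1.29, Ccnb2 2.96, Ccnd3 2.53, Cd48 3.74, Cdc20 2.71, Cebpa 2.77, Cpa3 1.82, Csf1r 2.89, Ddost 2.15 and Epor 2.04. It also turned positive in Fcer1a 0.40, Gata1 2.50, Gpi1 2.50, Gstm1 1.12, Hspa1b 2.91, Hspa5 2.48, Idh1 2.72, Idh3a 2.58, Il7r 1.27, Irf8 1.26, Itga2b 4.03 and Klf1 1.21. The others that turned were Ldha 3.19, Ly6d 0.20, Ly6e 2.89, Lyz2 1.69, Mcm2 2.53, Nkg7 1.78, P4hb 1.88, Prtn3 0.25, Rrm2 1.33, S100a9 0.90, Spi1 2.94, Tmem14c 2.12, Uqcrc1 2.47 and Vwf 1.98. The sign held but the call was lost in Mpo (-0.37, adjusted p = 0.216), Ctsg (-0.08, 0.826), S100a8 (-0.29, 0.57), Fcgr3 (-0.21, 0.859) and Adgre1 (0.0921). The shift of the median by 4.17 accounts for these by construction, apart from Adgre1. With 0 counts in LSK, its fitted difference on the spike-in scale was still -9.22 (SE 4.86). Depth limits genes at 0 counts to the bounds given, and 2 libraries from 1 pool leave the spread between mice unmeasured. Counts of list members under the alternatives were added after the data were seen.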

Other observations

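Further gene lists were measured in the wild-type comparison, in which 10.2% of all genes were called higher in LSK and 13.7% higher in MPP. Of 22 niche adhesion and retention genes tested, 8 were called higher in LSK, among them the regulators of chemokine signalling Rgs1 and Rgs2 and the integrins Itga6 and Itga9, and 7 higher in MPP, among them the chemokine receptor Cxcr4 and the leukocyte integrin chains Itgb2 and Itgb7; without MPP WT replicate 2, 4 were called higher in LSK. Of 44 genes of polymerase I transcription and ribosome assembly, 7 (15.9%) were called in each direction, near those shares, with Npm1 and Ncl on the LSK side and Bop1, Pes1 and Nop2 on the MPP side. Without MPP WT replicate 1 or 2 the counts were 4 and 3 for LSK and 3 and 3 for MPP. Circadian clock genes were called higher in LSK in 4 of 17 members, Hlf, Per1, Tef and Nr1d2, and higher in MPP in 1, Nr1d1; without MPP WT replicate 1, 2 were called higher in LSK.

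Of 26 inflammatory cytokine and NF-kB genes, 4 were called higher in LSK and 3 higher in MPP. Of 31 cholesterol and fatty acid synthesis genes the counts were 3 and 4, and of 20 p53 targets 2 and 3, shares near those of all genes. Replication-dependent histone genes were called higher in MPP in 3 of 56 members and higher in LSK in 0, and without MPP WT replicate 1 or 2 none of the 56 was called higher in MPP. Of 10 lineage gate markers tested, Cd3e and Cd5 were called higher in MPP. The genes named here were chosen after their values were seen.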
